A study of Mus musculus with 63 samples.

Results

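This comparison set ras-transformed mouse keratinocytes lacking EGFR against wild-type ones while both were held in the EGFR kinase inhibitor PD153035. Its members are the arrays titled for ras with PD153035 in either genotype, 10 of the 63 arrays of the series, with 5 from EGFR knockout (KO) and 5 from wild-type (WT) cells. Both groups were skin keratinocytes of newborn CD-1 mice, transduced with the viral oncogene v-rasHa through diluted supernatant of Psi-2 producer cells and kept for 4 days afterwards. Both then received 1 µM PD153035 for 2 h at the end of the culture, so no member group was free of ras or of the inhibitor. The labels call the allele a gene knock out and do not say how it was made or how many animals gave cells to a culture. Every array paired its sample with a universal reference RNA pooled from mouse cell lines, and 1 array per genotype, repeat 4, carried the dyes in reverse. The other arrays used beside these came from ras cells without inhibitor (5 WT, 5 KO), with AG1478 (5 WT, 6 KO) and with erlotinib (5 WT, 4 KO).

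EGFR is a receptor tyrosine kinase that binds ligands of the EGF family and passes the signal to the ERK cascade and to PI3 kinase. In epidermis it supports proliferation of basal keratinocytes, and ras-transformed keratinocytes release EGFR ligands that stimulate the cells that made them. PD153035 is a quinazoline that blocks the ATP site of the EGFR kinase, so the comparison asks which transcripts separate cells without the receptor from cells whose receptor is present and had been inhibited for a short time.

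Values are log ratios of sample over reference, taken as log2, and a difference is KO minus WT on that scale with its standard error (SE) from limma. A probe is called where its p, adjusted by Benjamini-Hochberg over all probes tested, was under 0.05, and brackets give the difference ± SE and that adjusted p. The 10 arrays held 27705 to 28013 values each, and their SDs ran from 0.921 to 1.44. Array profiles correlated at 0.631 to 0.900 within a genotype (median 0.776) and at 0.545 to 0.825 between genotypes (median 0.743). Labels were checked with 17 keratinocyte genes against 21 genes of the reference pool's cells, and the keratinocyte median lay above the reference median on all 10 arrays. The gap was uneven. In WT it read 1.60, 2.97, 5.97, 2.38 and 5.73 on repeats 1 to 5, and in KO 5.97, 3.96, 4.54, 2.82 and 6.45. WT repeats 1, 2 and 4 and KO repeat 4 were thus the lowest, and results without these 4 arrays are given beside each group of genes. The experiment numbers of the 10 arrays form a single run in which every WT number precedes every KO number, so genotype and order within the run cannot be told apart.

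The targeted gene *Egfr* has 2 probes on the array. The brighter gave 1.46, 1.99, 2.03, 1.11 and 2.24 on the KO arrays and 2.01, 1.23, 2.27, 1.88 and 2.19 on the WT arrays (difference −0.15 ± 0.40, adjusted p = 0.975). The other gave 1.42, 0.02, 0.42, −0.12 and 1.30 in KO against 0.58, 0.98, 2.61, 0.79 and 2.49 in WT (−0.88 ± 0.48, adjusted p = 0.564). Arrays of the genotypes overlapped at both probes. Their position in the gene against the deletion is unknown here, and they therefore check no genotype label.

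The largest differences were lower levels in KO of the chemokine genes *Cxcl5* and *Ppbp* and of *Ifi204*, and the largest increases were those of *Cwc22*, *Mtm1* and *Zfp90*. Sterol and fatty acid enzymes (9 of 22 genes) and mitosis genes (7 of 22) held the most calls among the lists of host genes, all lower. Of 27934 probes tested, 386 were called (1.38%), of which 149 were higher in KO (0.533%) and 237 lower (0.848%). Reduced to 1 probe per gene, 209 of 14503 genes were called (1.44%), 78 higher (0.538%) and 131 lower (0.903%). The median difference over all genes was −0.0156, and 51.8% of genes had a negative difference. At an unadjusted p under 0.05 there were 2904 probes, and the 95% interval of a probe reached 0.742 either side of its difference at the median. The arrays of the genotypes did not overlap at 1670 probes (5.98%), and 344 of the calls were among these (1.23% of probes). Without the 4 arrays of low keratinocyte signal 204 probes were called, 33 higher and 171 lower, of which 120 were among the 386. That run kept only WT repeats 3 and 5 and KO repeats 1, 2, 3 and 5. Calls lost there through fewer arrays and through keratinocyte signal cannot be told apart. Of the named genes called, 44 lost the call there, and *Krt18* and *Rragd* had too few values to be tested. Genes named for their size were chosen among probes without overlap between genotypes, so the lack of overlap is a description. Single arrays left out gave 205 (without KO repeat 3) to 394 calls (without KO repeat 4). The count moved by over 1.5 times in 6 of the 10 omissions: WT repeat 3 (232 calls) or 5 (252), and KO repeat 1 (214), 2 (243), 3 (205) or 5 (251).

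*Cxcl5*, a chemokine that attracts neutrophils, showed the largest difference. It measured −0.87, −0.17, −0.35, −0.63 and −0.21 on the KO arrays and 4.39, 5.32, 5.58, 4.34 and 4.97 on the WT arrays (−5.37 ± 1.11, 0.0040). The KO arrays all lay near the reference level and far below the lowest WT array. Its neighbour in the chemokine family *Ppbp*, the platelet basic protein, read −0.07, 0.43, 0.08, 0.97 and −0.31 in KO. In WT it read 4.81, 3.62, 7.23, 4.61 and 2.72, again with no overlap (−4.38 ± 0.76, 3.2e-04). *Ifi204*, an interferon-inducible gene of the p200 family, followed at −1.18, −0.30, −1.47, −1.01 and −0.97 in KO and 2.93, 3.25, 3.29, 2.62 and 2.48 in WT (−3.90 ± 0.57, 1.77e-05). The call of *Cxcl5* was lost without the 4 arrays of low keratinocyte signal (adjusted p = 0.076). Its difference stayed between −5.88 and −5.22 in every alternative run that tested it. *Ppbp* and *Ifi204* were called under every alternative run that tested them.

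The other cytokines and chemokines moved less evenly. Of 23 listed genes, 2 were called, both lower (background 0.903% of genes). They were *Cxcl5* and *Il1a*, the epidermal interleukin 1 alpha (−1.92 ± 0.50, 0.0326). Differences were negative at 19 of the 23, with a median of −0.51 against −0.0156 over all genes. *Il1a* was at 0.47, 0.51, 0.66, −0.37 and 0.51 in KO and 1.17, 2.96, 2.72, 2.02 and 2.52 in WT, without overlap. Not called were *Il24* (−2.60 ± 0.81, 0.095), *Cxcl1* (−1.10 ± 0.71, 0.676) and *Cxcl2* (−0.83 ± 0.37, 0.387). Among 10 S100 genes, which code for small calcium-binding proteins, the 2 calls pointed both ways (background 0.538% of genes called higher and 0.903% lower). *S100a7a*, the mouse relative of psoriasin, was lower (−2.51 ± 0.58, 0.0118), and *S100a10*, the partner of annexin A2, was higher (1.63 ± 0.33, 0.0030). *S100a10* stood at 3.71, 3.84, 3.95, 3.71 and 3.90 in KO and at 2.03, 2.61, 2.09, 1.88 and 2.38 in WT, without overlap. The alarmins *S100a8* (−1.15 ± 0.58, 0.492) and *S100a9* (−1.75 ± 0.54, 0.0905) were not called. The 4 genes of the prostaglandin and proliferin list, *Ptgs2*, *Ptges*, *Prl2c2* and *Prl2c5*, had differences of −2.56 to −1.19, and none was called. *Ptgs2*, cyclooxygenase 2, was high in both genotypes at 2.65 to 5.26 in KO and 4.46 to 6.39 in WT. Without the 4 arrays of low keratinocyte signal, neither *Cxcl5* nor *Il1a* was called, and the single cytokine call was *Il24* (−4.61, 0.0173). *S100a7a* was still called there and *S100a10* was not.

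**Figure D1:**
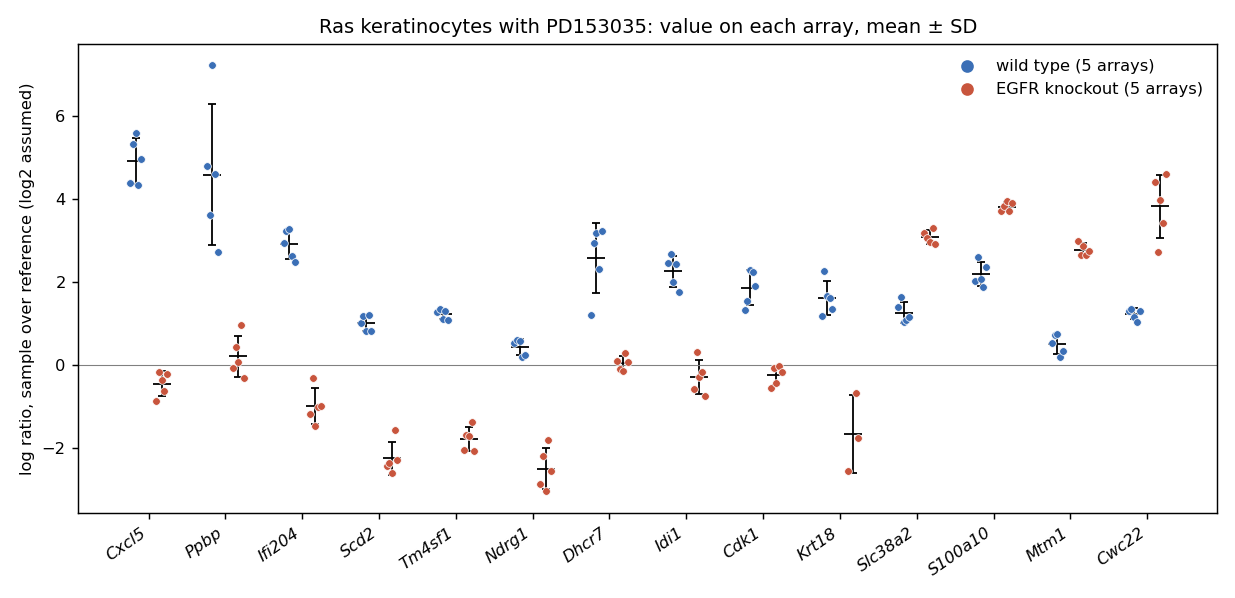
Log ratio of sample over reference (vertical axis, log2 assumed) for 14 called genes on each array, with WT in blue and KO in red, 5 arrays each except 3 KO values for Krt18; bars give mean ± SD. The WT arrays of Cxcl5 sit between 4.34 and 5.58 and all its KO arrays below 0, and Slc38a2 sits between 2.91 and 3.31 in KO and between 1.03 and 1.64 in WT.

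EGF family ligands, which include the factors that ras cells release to stimulate their own receptors, were on the low side in KO throughout. All 7 tested genes had negative differences (median −1.19), against 51.8% of all genes. Called were 2 of them (background 0.903% of genes called lower), *Hbegf* (−2.10 ± 0.55, 0.0342) and *Btc* (−1.93 ± 0.53, 0.0440). *Hbegf*, heparin-binding EGF, measured 0.12, −0.61, −0.34, −0.30 and 0.07 in KO and 0.87, 2.33, 2.58, 0.93 and 2.72 in WT. *Btc*, betacellulin, measured 0.16, −1.66, −0.93, −0.49 and −0.91 in KO and 0.90, 0.53, 2.09, 1.74 and 0.59 in WT. Neither overlapped between genotypes, yet both calls were lost without the 4 arrays of low keratinocyte signal, where 0 of 7 were called. *Ereg*, epiregulin, was the ligand with the highest ratio at 2.34 to 5.44 in KO and 4.51 to 6.72 in WT, and was not called (−1.71 ± 1.15, 0.711). *Tgfa* was not called either (−1.19 ± 0.51, 0.352). Taken as the median of the measured ligand genes on each array, KO arrays read −0.61 to 0.16 and WT arrays 0.84 to 2.09. The ErbB receptors and adaptors had no call among 11 genes, with 10 positive differences (median 0.15). *Erbb2* gave 0.01 ± 0.36 (0.998), *Erbb3* 0.26 ± 0.39 (0.941) and *Erbb4* 0.07 ± 0.34 (0.990).

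Immediate early and feedback genes of the ERK pathway, the readout closest to EGFR kinase activity, had calls in both directions. Of 33 genes, 1 was higher (background 0.538% of genes) and 2 lower (background 0.903%). Differences were positive at 16 and negative at 17, and the median was −0.04. *Egr1*, an immediate early transcription factor, was near the reference level on every array, at −0.37, −0.02, −0.14, −0.48 and −0.43 in KO and −0.05, −0.11, −0.51, −0.46 and 0.34 in WT (−0.13 ± 0.29, 0.969). *Fos* (−0.51 ± 0.62, 0.913), *Dusp1* (−0.21 ± 0.45, 0.968) and *Dusp6* (0.00 ± 0.35, 1.00) were not called. *Dusp4*, a phosphatase induced by ERK, was lower at 1 probe (−2.40 ± 0.46, 0.0011). It was not called at its others, the chosen one among them (−1.24 ± 0.41, 0.129). *Etv4*, a transcription factor of the ETS family induced by ERK, was lower in KO (−2.36 ± 0.52, 0.0065), with KO arrays at −0.83 to −0.07 and WT arrays at 1.50 to 2.09. The orphan nuclear receptor gene *Nr4a1* was lower as well (−1.53 ± 0.40, 0.0326). *Btg2*, an antiproliferative early gene, was higher (1.38 ± 0.36, 0.0302), at −0.12 to 0.64 in KO and −1.39 to −1.04 in WT. Without the 4 arrays of low keratinocyte signal the list had 0 calls.

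Sterol and fatty acid synthesis genes formed the largest called group among the host gene lists. Of 22 genes, 9 were called, all lower in KO (9 of 22 against a background of 0.903% of genes called lower), and 21 of 22 differences were negative, with a median of −0.93. Enzymes of this pathway build cholesterol from acetyl units and desaturate fatty acids, and their transcription is driven by the SREBP factors together with NF-Y. *Scd2*, a stearoyl-CoA desaturase, measured −2.43, −2.35, −2.59, −1.56 and −2.29 in KO and 1.02, 1.18, 0.82, 1.21 and 0.81 in WT (−3.25 ± 0.47, 1.32e-05). Its relative *Scd1* differed less (−2.01 ± 0.45, 0.0098), and both genotypes were below the reference there, KO at −4.38 to −2.77 and WT at −2.48 to −1.15. *Dhcr7*, the last step of cholesterol synthesis, read 0.10, −0.08, −0.15, 0.30 and 0.08 in KO and 1.21, 2.94, 3.19, 2.31 and 3.24 in WT (−2.53 ± 0.39, 3.29e-05). Every KO array was close to the reference and every WT array above it.

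Further members of the mevalonate and sterol branch were lower in the same way. *Idi1*, the isopentenyl diphosphate isomerase, stood at −0.57, 0.32, −0.30, −0.15 and −0.73 in KO and 2.46, 2.68, 2.01, 2.43 and 1.76 in WT (−2.56 ± 0.48, 9.0e-04). *Msmo1*, the methylsterol monooxygenase, stood at 0.29, 0.55, 0.61, −0.02 and 0.40 in KO and 2.84, 2.19, 3.30, 2.74 and 2.79 in WT (−2.40 ± 0.42, 4.3e-04). *Insig1*, which retains the SREBP complex in the endoplasmic reticulum and is itself a target of it, was lower by all 3 of its probes (chosen probe −1.88 ± 0.42, 0.0087). *Cyp51*, lanosterol demethylase (−1.45 ± 0.29, 0.0020), *Mvd*, mevalonate diphosphate decarboxylase (−1.32 ± 0.30, 0.0115), and *Acly*, which supplies cytosolic acetyl-CoA (−1.07 ± 0.27, 0.0220), completed the called set. All 9 had arrays that did not overlap between genotypes, as did 344 of the 386 called probes. Not called at the chosen probe were *Hmgcs1* (−0.54 ± 0.30, 0.576), *Sqle* (−0.92 ± 0.29, 0.0994), *Fasn* (−0.44 ± 0.27, 0.640) and *Nsdhl* (−0.12 ± 0.33, 0.976). Another probe of *Nsdhl* was called lower (−1.445), and it was called lower with erlotinib as well (−1.72, 0.0240). *Fdps*, farnesyl diphosphate synthase, was read by 3 probes that disagreed: 0.12 ± 0.32 (0.976) at the chosen probe, −1.63 ± 0.27 (1.4e-04) and −1.20 ± 0.36 (0.0848) at the others. On each array the median of the 22 genes was −0.57 to −0.13 in KO and 0.41 to 1.12 in WT. Leaving out the 4 arrays of low keratinocyte signal left 4 calls and again 21 negative differences.

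Promoter windows were inspected because these genes moved together. RefSeq windows of GRCm38.p6, 300 bases long and lying around a start site, were at hand for 16 of the 22 genes, 7 of the called and 9 of the others. The NF-Y box CCAAT, searched on both strands, occurred in at least 1 window of all 7 called genes and of 7 of the 9 others, against 37.4% of all 32851 windows. The SREBP element TCACNCCAC, also searched on both strands, occurred in 0 of the 7 called genes and in 1 of the 9 others, *Hmgcs1*, against 1.24% of all windows. Both are matches of letters in short windows and are given as a description. Windows of 4 called genes are shown 5′ to 3′ along the gene's strand as examples of the box, with each CCAAT, or ATTGG where it lies on the other strand, in capitals. They are *Idi1* at chr13:8885356-8885655 (plus strand), *Msmo1* at chr8:64733529-64733828 (minus), *Mvd* at chr8:122443373-122443672 (minus) and *Cyp51* at chr5:4104648-4104947 (minus).
Idi1: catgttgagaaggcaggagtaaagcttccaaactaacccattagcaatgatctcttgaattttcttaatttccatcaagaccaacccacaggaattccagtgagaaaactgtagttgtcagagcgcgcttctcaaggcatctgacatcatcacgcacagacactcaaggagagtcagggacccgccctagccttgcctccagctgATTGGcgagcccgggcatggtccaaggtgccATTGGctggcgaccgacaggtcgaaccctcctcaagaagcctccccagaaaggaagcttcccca
Msmo1: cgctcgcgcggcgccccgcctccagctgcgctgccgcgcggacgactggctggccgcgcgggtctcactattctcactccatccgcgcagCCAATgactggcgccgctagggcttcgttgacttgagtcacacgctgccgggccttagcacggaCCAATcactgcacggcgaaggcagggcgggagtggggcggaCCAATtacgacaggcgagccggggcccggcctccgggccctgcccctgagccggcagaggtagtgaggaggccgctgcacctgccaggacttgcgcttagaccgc
Mvd: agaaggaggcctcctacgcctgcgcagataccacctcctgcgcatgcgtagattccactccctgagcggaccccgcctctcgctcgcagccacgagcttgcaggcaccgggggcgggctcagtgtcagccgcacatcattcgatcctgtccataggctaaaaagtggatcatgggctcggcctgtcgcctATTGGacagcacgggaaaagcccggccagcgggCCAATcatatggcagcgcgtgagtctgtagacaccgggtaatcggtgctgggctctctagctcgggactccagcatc
Cyp51: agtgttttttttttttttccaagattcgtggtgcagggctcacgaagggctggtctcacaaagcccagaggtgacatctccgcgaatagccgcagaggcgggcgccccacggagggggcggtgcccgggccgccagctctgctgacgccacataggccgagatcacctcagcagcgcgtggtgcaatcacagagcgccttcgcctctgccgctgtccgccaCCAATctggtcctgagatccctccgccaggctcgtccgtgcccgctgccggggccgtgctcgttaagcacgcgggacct
*Msmo1* holds 3 boxes in its window, *Idi1* and *Mvd* hold 2 each, and *Cyp51* holds 1.

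The sterol genes differed in how far their deficit extended to the other ras comparisons, which share no sample with this one. *Cyp51* was lower in KO without inhibitor too (−1.39 ± 0.29, 0.0071), and *Mvd* was lower with AG1478 (−1.50 ± 0.29, 0.0019). *Scd2* stood at −1.12 ± 0.47 (0.203) without inhibitor, −1.04 ± 0.45 (0.236) with AG1478 and −1.81 ± 0.50 (0.0557) with erlotinib. For *Dhcr7* the same comparisons gave −0.31 ± 0.39 (0.737), −1.10 ± 0.37 (0.100) and −0.89 ± 0.41 (0.281). All 9 genes had negative differences in all 4 comparisons, and no difference between PD153035 and another condition was called for any of them. Over the whole list the counts of called genes were 1, 3 and 0 of 22 lower without inhibitor, with AG1478 and with erlotinib, with medians of −0.50, −0.60 and −0.26, and 5 of 22 differences were positive with erlotinib. Over all genes 1.03%, 1.7% and 0.487% were called lower there.

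**Figure D2:**
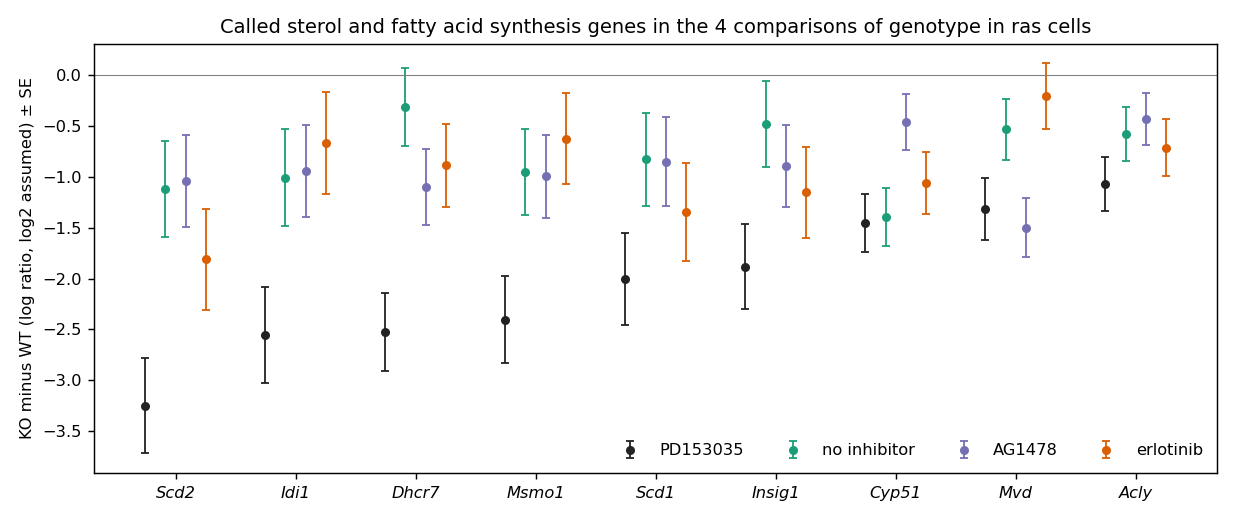
Difference KO minus WT ± SE (vertical axis, log2 assumed) of the 9 called sterol and fatty acid genes in ras cells with PD153035 (black) and in the comparisons of genotype without inhibitor, with AG1478 and with erlotinib. All points lie below 0, and the PD153035 value of Scd2, −3.25, is the lowest point drawn.

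Genes of mitosis and of DNA replication had mostly negative differences, with more calls among the former, a contrast that was not tested. Of 22 mitosis genes 7 were called, all lower (background 0.903% of genes). Differences were negative at 20 of the 22 (median −1.01), against 51.8% of all genes. *Cdk1*, the mitotic kinase, read −0.54, −0.08, −0.44, −0.01 and −0.16 in KO and 1.34, 1.55, 2.30, 2.24 and 1.90 in WT (−2.11 ± 0.41, 0.0016). Its cyclins *Ccnb2* (−2.34 ± 0.48, 0.0030) and *Ccna2* (−2.26 ± 0.50, 0.0082) were lower with it. *Ccnb2* was below the reference in both genotypes, at −3.09 to −2.41 in KO and −0.75 to −0.41 in WT, whereas *Ccna2* was above it on all WT arrays. *Top2a*, topoisomerase II alpha (−2.06 ± 0.44, 0.0056), *Bub1b*, a spindle checkpoint kinase (−1.97 ± 0.40, 0.0027), and the spindle proteins *Prc1* (−1.42 ± 0.34, 0.0176) and *Kif11* (−1.34 ± 0.35, 0.0349) were the other called members. *Kif23*, a kinesin of cytokinesis named for its size and no member of the list, measured −1.71, −1.62, −1.93, −0.53 and −2.39 in KO and 0.28, 1.05, 1.41, 1.49 and 0.71 in WT (−2.62 ± 0.47, 5.9e-04). *Birc5* (−0.91 ± 0.35, 0.252) and *Cdc20* (−0.42 ± 0.34, 0.792) were not called.

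Replication genes had 20 of 24 negative differences and a median of −0.80. The single call was the ligase *Lig1* (−1.27 ± 0.34, 0.0389), against a background of 0.903% of genes called lower. *Mcm2* (−0.98 ± 0.42, 0.345), *Mcm4* (−0.85 ± 0.52, 0.643) and *Mcm7* (0.13 ± 0.35, 0.978), subunits of the replicative helicase, were not called, nor was *Ccne1* (0.06 ± 0.49, 0.993). The median of the mitosis genes per array was −0.58 to −0.13 in KO and 0.14 to 0.95 in WT, and that of the replication genes −0.12 to 0.19 and 0.35 to 1.15. Neither pair of ranges overlapped. Without the 4 arrays of low keratinocyte signal 2 mitosis genes and 0 replication genes were called. In the other comparisons of genotype, *Cdk1* gave −1.24 ± 0.41 (0.0926) without inhibitor, −0.41 ± 0.39 (0.665) with AG1478 and 0.38 ± 0.43 (0.721) with erlotinib. Over the mitosis list 21, 15 and 9 of 22 differences were negative there, with medians of −0.71, −0.13 and 0.08. Called lower were 0, 1 and 0 of its genes. In p53 target genes, 13 of 14 differences were positive (median 0.60), whereas 51.8% of all genes were negative. Only *Gadd45a*, a stress gene that halts the cell cycle, was called (1.31 ± 0.30, 0.0104), against 0.538% of genes called higher. The call of *Gadd45a* was lost without those 4 arrays. *Cdkn1a*, the cell cycle inhibitor p21, was not called (0.62 ± 0.47, 0.773).

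*Krt18*, a keratin of simple epithelia, was lower in KO (−3.35 ± 0.76, 0.0110), with −2.55, −0.67 and −1.74 on the 3 KO arrays that held a value and 1.19, 2.26, 1.67, 1.62 and 1.36 in WT. *Krt7*, another such keratin, was lower too (−1.88 ± 0.45, 0.0162), and it was also lower with AG1478 (−1.94 ± 0.43, 0.0079) and with erlotinib (−3.20 ± 0.48, 1.1e-04). *Cldn3*, a tight junction claudin, read −1.53, −1.85, −2.38, −0.24 and −2.93 in KO and 1.13, 1.44, 1.84, 0.85 and 1.03 in WT (−3.04 ± 0.60, 0.0018), a sign change that every array shared. The stress keratins *Krt6a* (0.33 ± 0.86, 0.975), *Krt16* (1.44 ± 0.67, 0.418) and *Krt17* (1.37 ± 0.94, 0.721) were not called. None of 15 basal genes (median 0.08), 20 suprabasal and cornified envelope genes (median 0.26) or 13 desmosome genes (median 0.40) was called at its chosen probe. *Krt10*, a keratin of differentiating layers, had 2 probes that disagreed, 0.47 ± 0.46 (0.871) at the chosen probe and 3.10 ± 0.57 (7.2e-04) at the other. *Sprr2k*, a small proline-rich envelope gene, was lower (−3.09 ± 0.83, 0.0428), with KO at 0.44 to 0.67 and WT at 1.93 to 7.0. *Defb14*, an antimicrobial defensin, was lower as well (−2.64 ± 0.66, 0.0220). *Notch1*, the receptor that promotes keratinocyte differentiation, was the single call among 22 Notch and Wnt genes (background 0.538% of genes called higher). It was higher (1.40 ± 0.33, 0.0136), at 2.02 to 2.43 in KO and 0.61 to 1.27 in WT. It was also higher in KO without inhibitor (1.19 ± 0.33, 0.0421) and with AG1478 (1.43 ± 0.31, 0.0068). *Krt7*, *Defb14* and *Notch1* lost the call without the 4 arrays of low keratinocyte signal, and *Cldn3* and *Sprr2k* did not. Over all alternative runs that tested them, *Sprr2k* lost the call in 12 of 24 and *Cldn3* in 0 of 25. WT repeat 3, kept in the run without those 4 arrays, read 7.0 at *Sprr2k* (other WT arrays 1.93 to 3.33).

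**Figure D3:**
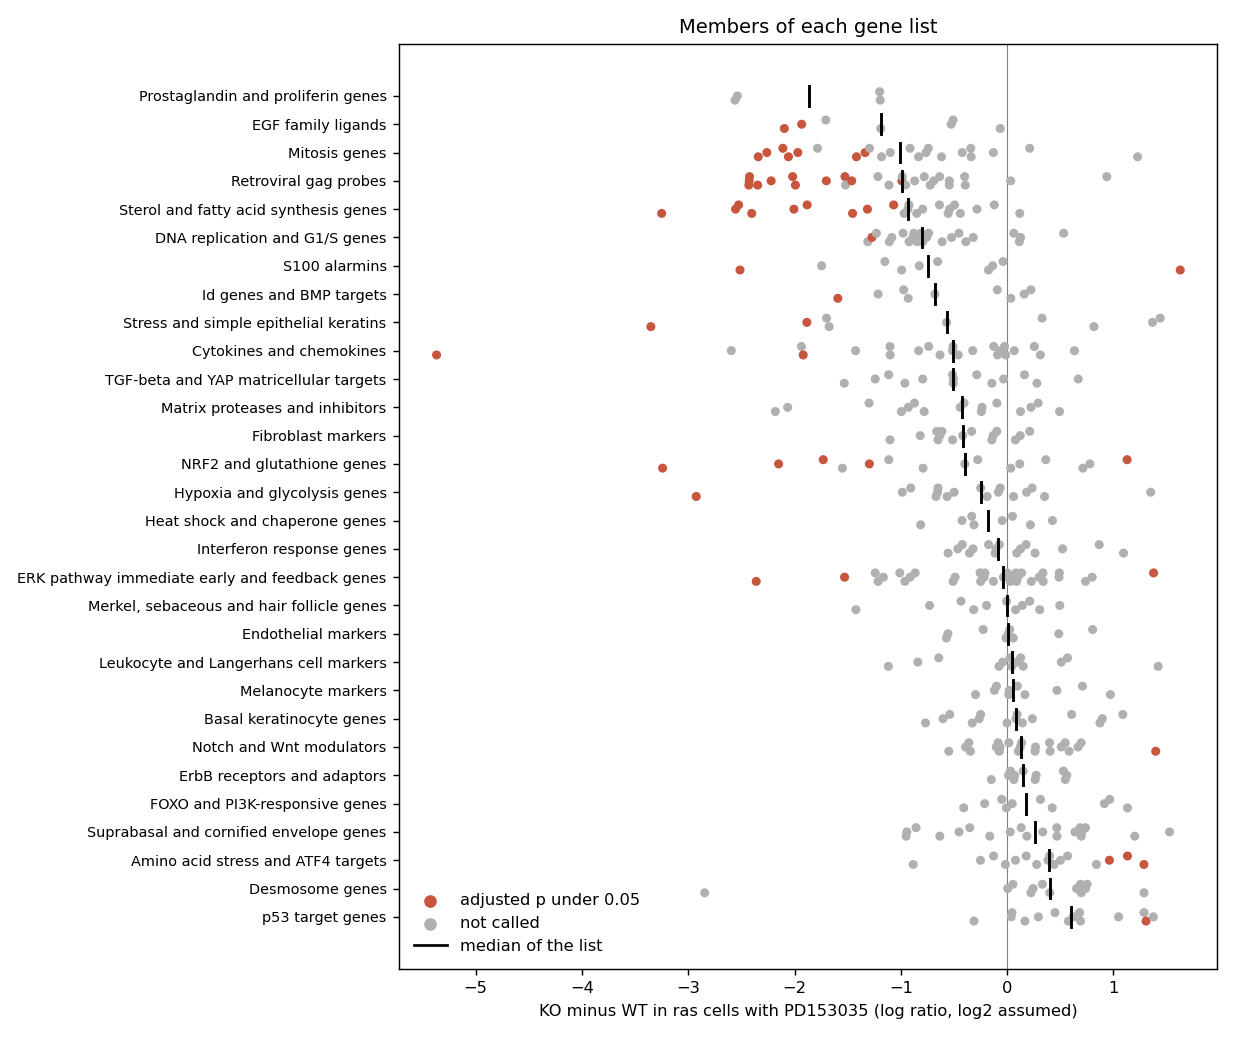
Difference KO minus WT in ras cells with PD153035 (horizontal axis, log2 assumed) for each member of 30 lists (vertical axis), 1 probe per gene except for the gag probes; red points were called, grey points were not, and the black bar is the list's median. The called points of the sterol list (9 of 22) and the mitosis list (7 of 22) all lie left of 0, and the medians run from −1.87 for prostaglandin and proliferin genes to 0.60 for p53 target genes.

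Other membrane and metabolic genes completed the large decreases. *Tm4sf1*, a tetraspan surface protein of carcinomas, was nearly level across the WT arrays at 1.28, 1.34, 1.12, 1.30 and 1.10, against −2.05, −1.68, −1.71, −1.37 and −2.06 in KO (−3.0 ± 0.42, 6.79e-06). *Ndrg1*, a stress and hypoxia gene linked to differentiation, read −2.86, −2.20, −3.04, −1.81 and −2.55 in KO and 0.53, 0.62, 0.59, 0.20 and 0.24 in WT (−2.93 ± 0.36, 4.52e-07). Its other probe was called the same way (−2.80 ± 0.34, 4.52e-07). It was the only call among 17 hypoxia and glycolysis genes (background 0.903% of genes called lower), of which *Slc2a1* (−0.91 ± 0.46, 0.502), *Ldha* (−0.66 ± 0.31, 0.428) and *Pgk1* (−0.65 ± 0.24, 0.230) were not called. *Lipg*, an endothelial-type lipase, was lower on every array, at −1.24 to −0.37 in KO and 2.17 to 2.91 in WT (−3.12 ± 0.57, 7.2e-04). *Mal*, a lipid raft proteolipid, was lower by both probes (−3.11 ± 0.84, 0.0408 at the chosen one). *Ctsl*, the protease cathepsin L, was lower (−2.71 ± 0.56, 0.0040), at 0.63 to 1.53 in KO and 2.06 to 4.57 in WT. Of these genes *Mal* lost its call without the 4 arrays of low keratinocyte signal.

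Glutathione and NRF2 genes moved both ways. Of 15, *Gsta4* (−3.24 ± 0.67, 0.0040), *Gsta1* (−2.15 ± 0.55, 0.0298), *Gsto1* (−1.73 ± 0.32, 7.2e-04) and the sulfiredoxin gene *Srxn1* (−1.30 ± 0.27, 0.0048) were lower in KO. The background was 0.903% of genes called lower and 0.538% called higher. *Gstp1*, another glutathione transferase, was higher (1.13 ± 0.28, 0.0237), so the list held calls in both directions around a median of −0.40. With the 4 arrays of low keratinocyte signal left out, *Gsta1*, *Srxn1* and *Gstp1* lost the call and *Hmox1* gained one (−3.73, 0.0072). *Gsta4*, which detoxifies products of lipid peroxidation, read −2.38, −1.29, −1.37, −0.59 and −2.56 in KO and 1.42, 1.77, 1.92, 1.36 and 1.56 in WT. *Nqo1* (−0.79 ± 0.31, 0.265), *Hmox1* (−1.11 ± 0.74, 0.703) and *Gclc* (0.78 ± 0.31, 0.275) were not called. *Gsto1* was lower with AG1478 as well (−1.19 ± 0.30, 0.0220), *Gsta4* with erlotinib (−3.10 ± 0.71, 0.0202), and *Gstp1* was higher without inhibitor (1.09 ± 0.28, 0.0320). *Id2*, which blocks helix-loop-helix transcription factors, was the only call of 9 Id and BMP genes (background 0.903% of genes called lower). It was lower (−1.59 ± 0.33, 0.0040), with *Id1* (0.03 ± 0.35, 0.996) and *Id3* (−0.68 ± 0.34, 0.480) not called. The call of *Id2* was lost without those 4 arrays.

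The largest increases in KO belonged to genes of varied function. *Cwc22*, a splicing factor, measured 4.42, 2.73, 3.97, 3.42 and 4.60 in KO and 1.32, 1.35, 1.16, 1.04 and 1.31 in WT (2.59 ± 0.54, 0.0040), and 1 of its 2 other probes was called the same way. *Mtm1*, the phosphoinositide phosphatase myotubularin, measured 3.00, 2.65, 2.88, 2.65 and 2.74 in KO and 0.54, 0.73, 0.76, 0.21 and 0.34 in WT (2.27 ± 0.34, 1.74e-05), and its other probe was called too. *Zfp90*, a zinc finger factor, stood at 3.44, 3.21, 3.41, 3.15 and 4.49 in KO and 1.53, 1.32, 2.15, 1.58 and 1.15 in WT (2.00 ± 0.48, 0.0156). The lowest KO array was above the highest WT array at all 3 genes. *Abca1*, which exports cellular cholesterol, was higher (1.62 ± 0.41, 0.0255), at 0.22 to 0.69 in KO and −1.75 to −0.58 in WT. Further increases were *Aldh3b2* (1.82 ± 0.46, 0.0269), an aldehyde dehydrogenase, *Acot2* (1.55 ± 0.32, 0.0036), a mitochondrial thioesterase, *Ap3b1* (1.57 ± 0.39, 0.0197), a vesicle adaptor subunit, and *Rragd* (1.53 ± 0.42, 0.0497), a GTPase that reports amino acids to mTORC1. *Olfr1104* (1.90 ± 0.39, 0.0040) and *Zfp451* (1.48 ± 0.34, 0.0115) were higher as well. *Npas4* (1.63 ± 0.44, 0.0419), *Nop58* (1.57 ± 0.29, 7.0e-04) and *Zc2hc1a* (1.48 ± 0.37, 0.0207) were higher at the chosen probe, but every other probe of these 3 genes was slightly negative and not called. *Mtm1* was the one increase named here that was still called without the 4 arrays of low keratinocyte signal.

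Amino acid supply was the only listed theme with several increases. *Slc38a2*, a transporter of neutral amino acids, read 3.18, 3.07, 2.96, 3.31 and 2.91 in KO and 1.41, 1.64, 1.03, 1.08 and 1.16 in WT (1.82 ± 0.28, 5.05e-05), and was called under every alternative run. Of 16 amino acid stress and ATF4 genes, 3 were called, all higher (3 of 16 against a background of 0.538% of genes called higher), 12 differences were positive, and the median was 0.39. They were *Atf4* itself, a transcription factor made when translation is restrained (1.29 ± 0.31, 0.0161 at the chosen probe), *Slc3a2*, the shared chain of large amino acid exchangers (1.13 ± 0.29, 0.0255), and *Asns*, asparagine synthetase (0.96 ± 0.26, 0.0431). *Atf4* stood at 2.01 to 2.63 in KO and 0.54 to 1.57 in WT, and *Slc3a2* at 0.50 to 1.48 and −0.31 to 0.11, neither overlapping. The other *Atf4* probes were not called (0.87 ± 0.31, 0.177 and 0.07 ± 0.42, 0.992), and the mean of its probes gave 0.74 (0.123). *Trib3* (0.40 ± 0.53, 0.925), *Chac1* (0.84 ± 0.70, 0.811) and *Ddit3* (0.08 ± 0.36, 0.988), also targets of ATF4, were not called. Without the 4 arrays of low keratinocyte signal the list had 0 calls.

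Retroviral gag sequence, carried by leukaemia-type proviruses and packaging constructs, was lower in KO. Of 27 probes annotated as gag, 11 were called, all lower (background 0.848% of probes), and 25 differences were negative (median −0.99). The median of the 27 probes was −0.04 to 0.14 on the KO arrays and 0.78 to 1.56 on the WT arrays. All 5 KO arrays lay below the 35 other arrays of ras cells, of which the lowest read 0.17, and the 22 arrays of mock-treated cells spanned −1.05 to 0.02. Without the 4 arrays of low keratinocyte signal 7 of 27 were called. The level of gag thus moved with genotype beside every gene group described here, and its part in those results was not tested. The keratinocyte signal overlapped between genotypes.

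**Figure D4:**
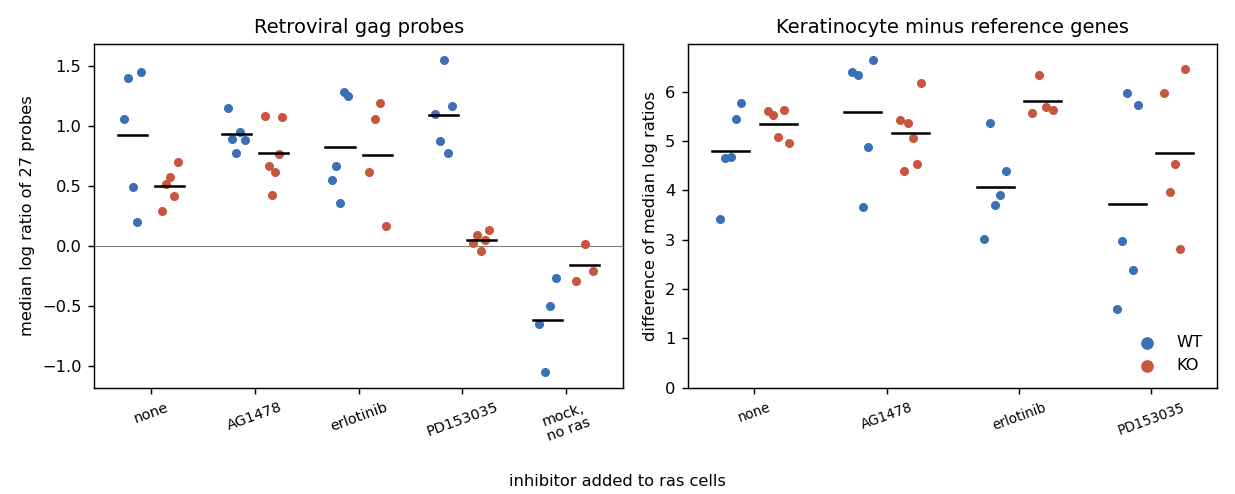
Left, median log ratio of the 27 gag probes on each array of ras cells by inhibitor, with the mock-treated cells without inhibitor at the right; right, keratinocyte minus reference gene medians on the same ras arrays. WT is blue, KO red, and bars are group means. With PD153035 the KO arrays read −0.04 to 0.14 for gag and the WT arrays 0.78 to 1.56, while the keratinocyte signal of the genotypes overlaps (2.82 to 6.45 in KO, 1.60 to 5.97 in WT).

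Markers of other cells the cultures could hold showed no call at their chosen probes. Even so, 12 of 15 fibroblast differences were negative (median −0.42 against −0.0156 over all genes). Other probes of the fibroblast marker *Vim*, picked out after their values were seen, differed by −2.05 and −2.08. Against no inhibitor, their genotype difference changed by −3.54 ± 0.76 (0.0373) and −3.24 ± 0.72 (0.0443) in limma's interaction test. Per array, the median of 15 fibroblast markers was −2.39 to −0.41 in KO and −1.83 to −0.42 in WT, and that of 13 leukocyte and Langerhans cell markers −1.27 to −0.17 and −1.0 to −0.35. For 10 melanocyte markers the ranges were 0.13 to 1.01 and 0.12 to 0.72, and for 9 endothelial markers −2.07 to −0.80 and −2.52 to −0.74. All these ranges overlap. In bulk RNA, fewer cells of a type and less RNA per cell cannot be told apart, which applies to every level given here.

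The differences seen with PD153035 were set beside those between the same genotypes in ras cells without inhibitor (541 probes called, 1.93%), with AG1478 (618, 2.23%) and with erlotinib (272, 0.985%). Called in both were 32 probes without inhibitor (8.29% of the PD153035 calls and 5.92% of the other list). With AG1478 they were 61 (15.8% and 9.87%), and with erlotinib 35 (9.07% and 12.9%). Their signs matched in 31, 59 and 35 of them. The 386 calls had the same sign in 314 of 386 probes without inhibitor, 317 of 385 with AG1478 and 305 of 385 with erlotinib, against 54.9%, 56.2% and 57.2% of all probes. Over all probes the differences correlated with those of the other comparisons at 0.171, 0.256 and 0.228, where probes are not independent. *S100a10* and *Ndrg1* illustrate calls that recurred. *S100a10* was higher in KO without inhibitor (1.64 ± 0.33, 0.0060), with AG1478 (1.18 ± 0.32, 0.0303) and with erlotinib (1.44 ± 0.35, 0.0288). *Ndrg1* was lower in KO with AG1478 (−1.76 ± 0.34, 0.0021).

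For the genes with the largest differences the levels in each ras group were compared. *Cxcl5* averaged −0.45 ± 0.30 (SD, n = 5) in KO and 4.92 ± 0.55 (n = 5) in WT with PD153035. In the other KO ras groups it averaged 1.25 ± 1.95 without inhibitor (n = 5), 2.18 ± 1.25 with AG1478 (n = 6) and 3.32 ± 4.01 with erlotinib (n = 4), and in the WT groups 3.64 ± 2.54, 4.01 ± 2.69 and 5.39 ± 1.18 (n = 5 each). KO cells with PD153035 had the lowest mean of the 8 groups, a rank favoured by choosing the gene for its difference on these same arrays. KO repeat 4 was about as low, at −0.57 without inhibitor and −0.89 with erlotinib. *Ppbp* averaged 0.22 ± 0.49 in KO with PD153035 and 4.60 ± 1.69 in WT. Elsewhere it averaged 1.72 ± 1.37, 2.60 ± 1.00 and 3.11 ± 2.83 in KO and 3.15 ± 0.97, 4.87 ± 2.04 and 4.26 ± 1.04 in WT, in the same order of groups. *Ifi204* was −0.99 ± 0.43 in KO and 2.91 ± 0.36 in WT with PD153035, and −0.22 ± 0.77, −0.36 ± 0.59 and 0.06 ± 1.40 in the other KO groups against 1.51 ± 1.19, 1.48 ± 1.62 and 2.74 ± 0.99 in WT. It was thus lower in KO than in WT on average in all 4 conditions, and called with erlotinib too (−2.67 ± 0.60, 0.0187).

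Among the increases, *Cwc22* averaged 3.83 ± 0.76 in KO and 1.23 ± 0.13 in WT with PD153035. The other KO groups averaged 1.58 ± 1.60 without inhibitor, 1.70 ± 1.15 with AG1478 and 2.99 ± 1.01 with erlotinib, and the WT groups 1.13 ± 0.78, 0.17 ± 1.26 and 0.94 ± 0.48. *Mtm1* averaged 2.79 ± 0.15 in KO and 0.51 ± 0.24 in WT with PD153035. It averaged 1.74 ± 0.53, 0.77 ± 0.29 and 1.98 ± 0.70 in the other KO groups and 0.56 ± 0.54, 0.79 ± 0.48 and 0.69 ± 0.15 in the WT groups. *Zfp90* averaged 3.54 ± 0.55 in KO and 1.55 ± 0.38 in WT with PD153035, 1.71 ± 1.10, 2.58 ± 0.69 and 2.35 ± 0.64 in the other KO groups and 2.29 ± 0.71, 1.37 ± 1.27 and 1.73 ± 0.67 in WT. KO with PD153035 had the highest mean at all 3 genes. They had been chosen for their differences on these same arrays, which favours such a rank. WT varied little between conditions at *Mtm1*.

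Whether the genotype difference itself changed with the inhibitor was tested as an interaction. Against ras cells without inhibitor it differed at 26 of 27854 probes (0.0933%), 10 higher (0.0359%) and 16 lower (0.0574%) with PD153035. WT and KO cells without inhibitor lie in different runs from each other and from these arrays, and with run as a random block 4 probes were called. The balance turned to 66 higher and 41 lower with forward arrays only and to 964 and 721 with array weights. Single arrays left out gave 8 to 103 calls, over 1.5 times away for each array but WT repeats 2 and 3 without inhibitor and WT repeat 5 with PD153035. *Egr1* led the 26 (3.17 ± 0.41, 8.08e-06): it averaged 2.63 ± 0.49 in WT and −0.67 ± 0.42 in KO without inhibitor (n = 5 each) but −0.16 ± 0.35 and −0.29 ± 0.20 with PD153035. With AG1478 it averaged 0.01 ± 0.19 in WT and −0.05 ± 0.55 in KO, and with erlotinib −0.15 ± 0.51 and 0.75 ± 0.72. High *Egr1* was thus seen only in WT ras cells without inhibitor among the 8 ras groups. *Id2* reversed (−3.05 ± 0.47, 3.7e-04), being called higher in KO without inhibitor (1.45 ± 0.33, 0.0156) and lower with PD153035. WT cells averaged −1.47 ± 0.55 without inhibitor and 0.45 ± 0.45 with PD153035, and KO cells −0.01 ± 0.99 and −1.14 ± 0.34. KO repeat 4 without inhibitor read −1.67, as low as the KO arrays with PD153035, and the other KO arrays there −0.15 to 0.68. KO repeat 4 with erlotinib read −1.45 and the other KO arrays there −0.19 to 0.18. *Ndrg1* (−2.35 ± 0.51, 0.0400) had a difference of −0.58 ± 0.36 without inhibitor. *Pla2g7*, the platelet-activating factor hydrolase (−2.57 ± 0.51, 0.0178), *Defb1*, a constitutive defensin (−2.66 ± 0.52, 0.0159), *Btg2* (2.36 ± 0.50, 0.0373), *Nop58* (1.89 ± 0.41, 0.0373) and *Was* (2.90 ± 0.65, 0.0445) were the other named genes, of which *Defb1* (−1.0 ± 0.37, 0.208) and *Was* (1.42 ± 0.46, 0.114) were not called with PD153035 itself.

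**Figure D5:**
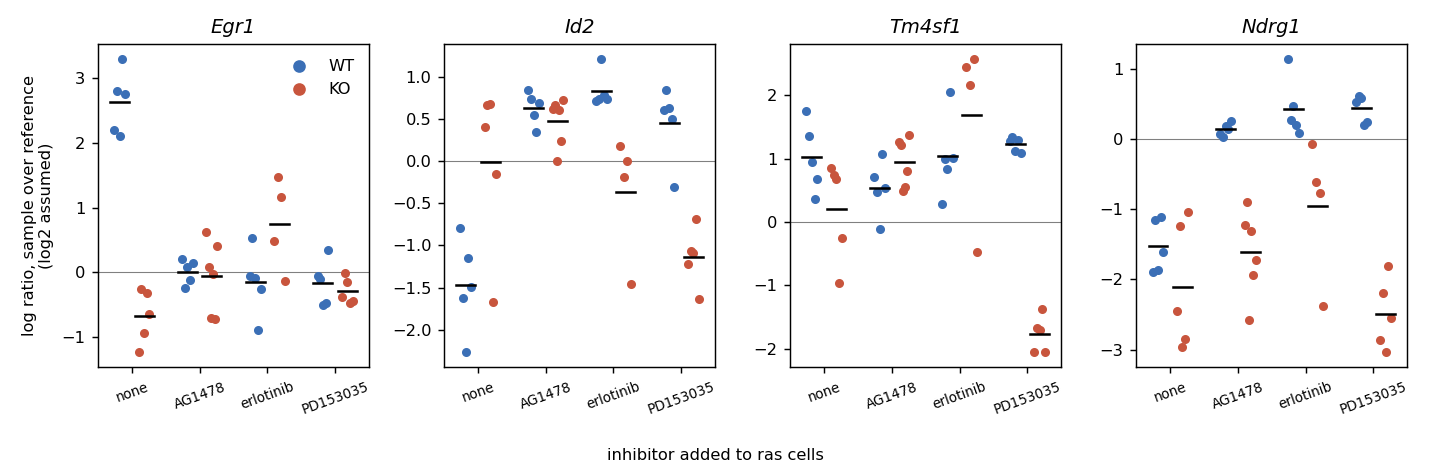
Log ratio of sample over reference (vertical axis, log2 assumed) of Egr1, Id2, Tm4sf1 and Ndrg1 on each array of ras cells by inhibitor (horizontal axis), with WT in blue, KO in red and bars at group means. Egr1 is high only in WT cells without inhibitor (mean 2.63), and Tm4sf1 is low on all 5 KO arrays with PD153035 (mean −1.77).

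Against AG1478, most of whose arrays share the run of these, the genotype difference changed at 43 of 27719 probes (0.155%), 20 higher (0.0722%) and 23 lower (0.083%) with PD153035. WT repeats 1, 2 and 5 with AG1478 lie in another run and no KO array with AG1478 does, so run was uneven between genotypes there. With sign and dye taken from the labels 14 of the 43 were still called, and 20 with the arrays of run 8 alone. Leaving out WT repeat 1 (24 calls) or 2 (28) with PD153035 or WT repeat 1 with AG1478 (28) moved the count by over 1.5 times. *Tm4sf1* was among them (−3.40 ± 0.58, 0.0011): its difference was −3.0 with PD153035 but 0.40 ± 0.40 with AG1478 and 0.66 ± 0.44 with erlotinib, and the contrast with erlotinib was called as well (−3.66 ± 0.61, 0.0021). KO cells averaged −1.77 ± 0.29 with PD153035, 0.95 ± 0.39 with AG1478 and 1.68 ± 1.44 with erlotinib, whereas the WT means were 1.23 ± 0.11, 0.54 ± 0.43 and 1.04 ± 0.64. The KO arrays with erlotinib read 2.45, 2.16, 2.58 and −0.47 on repeats 1 to 4. KO repeats 4 and 5 without inhibitor read −0.965 and −0.26, so levels of *Tm4sf1* below the reference were not confined to PD153035. *Muc15*, a membrane mucin (−3.04 ± 0.63, 0.0156), *Fxyd3*, a regulator of the sodium pump (−2.27 ± 0.47, 0.0167), *Acot2* (2.51 ± 0.44, 0.0017) and *Mtm1* (2.29 ± 0.46, 0.0153) differed too. The difference of *Fxyd3* with PD153035 was itself not called (−0.90 ± 0.34, 0.233). For *Nyap2* (3.45 ± 0.68, 0.0128), *Afm* (3.10 ± 0.64, 0.0156) and *Atp8b4* (2.70 ± 0.57, 0.0174) the same held (0.14 ± 0.47, 1.03 ± 0.46 and 0.79 ± 0.41). Against erlotinib the genotype difference changed at 14 of 27570 probes (0.0508%), 4 higher (0.0145%) and 10 lower (0.0363%). All erlotinib arrays lie in other runs than the PD153035 arrays, so inhibitor and run cannot be told apart there. Single arrays left out gave 2 (without WT repeat 3 with PD153035) to 124 calls (without KO repeat 4 with erlotinib). The count also moved by over 1.5 times without WT repeat 5 (9) or KO repeat 3 (9) with PD153035, and without WT repeat 1 (8), 3 (8) or 4 (33) or KO repeat 2 (6) or 3 (5) with erlotinib. *Acsl4*, a ligase for polyunsaturated fatty acids (−2.60 ± 0.50, 0.0177), and *Fxyd3* (−2.38 ± 0.50, 0.0277) joined *Tm4sf1* there, and the 4 other probes of *Acsl4* were negative but not called with PD153035. Probes that were not the chosen ones held further calls. They included *Il24* (−6.10 ± 1.16, 0.0177) and *Pcdh7* (−3.63 ± 0.74, 0.0267) against erlotinib and *Gabrp* (−3.46 ± 0.67, 0.0084) against AG1478. The chosen *Il24* probe was not called against erlotinib (−4.92 ± 1.18, 0.0905). *Mid1* was called at 1 such probe against no inhibitor (2.52), AG1478 (1.87) and erlotinib (2.81), but not at its other probes.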

How the data were processed

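Arrays were 2-colour hybridisations of sample against universal mouse reference RNA. The authors deposited 1 log ratio per probe and array, taken here as log2 values. Their log base, normalization and signal over background are not given in the labels or file. The direction of each array was set from its correlation with the median of the forward arrays, which equals the labels for the 10 arrays compared and goes against them on 2 KO arrays with AG1478. Both WT mock arrays labelled repeat 1 were averaged, leaving 62 samples in 13 groups. Differences were fitted with limma 3.58.1 in R 4.3.3 on all 13 groups with a dye term (48 residual degrees of freedom), and p-values were adjusted by Benjamini-Hochberg over all probes with a value on at least 60% of the arrays of each group compared. The array number limits the precision.

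Of 28049 probes, 20925 carry 1 gene symbol, 159 carry several and 6965 none. Each gene is shown by the probe with the most values. Named genes are the 15 largest called, non-overlapping differences in each direction, every called list member and the first 4 members of each pathway or family list. All *Egfr* probes and the 5 largest called differences of each interaction, at chosen probes only, were named too. Other probes of a gene were named after their values were seen. The members and the 32 lists were chosen with earlier results of these data known. The series' design text calls repeats biological replicates; if they were not separate cultures, the p-values measure technical spread. Same-numbered arrays deviated from their group means with correlations of −0.272, 0.149, 0.142, 0.481 and 0.483, so the numbers were not treated as pairs. Alternatives changed the samples in the fit, dye term, direction, normalization, missing-value filter, probe averaging, run, array weights and each array in turn. Scaling of arrays, leaving out the 4 arrays of low keratinocyte signal, run 8 alone and leaving out the 2 arrays of disputed direction were chosen after seeing the data. The fit was tested on simulated data.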

Additional observations from a re-analysis of the deposited data

Results flagged for a closer look

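The genotype difference of several named genes changed with the inhibitor by limma's interaction test. Against no inhibitor, the change was 3.17 for *Egr1*, 2.90 for *Was*, 2.36 for *Btg2* and 1.89 for *Nop58*, and −3.05 for *Id2*, −2.66 for *Defb1*, −2.57 for *Pla2g7* and −2.35 for *Ndrg1*. Against AG1478 it was 3.45 for *Nyap2*, 3.10 for *Afm*, 2.70 for *Atp8b4*, 2.51 for *Acot2* and 2.29 for *Mtm1*, and −3.40 for *Tm4sf1*, −3.04 for *Muc15* and −2.27 for *Fxyd3*. Against erlotinib it was −3.66 for *Tm4sf1*, −2.60 for *Acsl4* and −2.38 for *Fxyd3*.

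Single arrays stood apart from the other 4 of their group by Dixon's test in 18 of 286 groups of values (6.29%), where chance gives about 1 in 20. In KO repeat 2 these were *Ccnb2* at −2.41 (others −3.09 to −2.98) and *Id4* at −0.40. In KO repeat 4 they were *Il1a* at −0.37 (others 0.47 to 0.66), *Etv4* at −0.068 and *Mcm7* at 1.51. In KO repeat 5 they were *Krt6a* at 6.55 (others 3.97 to 4.68), *Zfp90* at 4.49, *Trib3* at 2.16, *Mal* at 0.33, *Nqo1* at −0.63 and *Srxn1* at −1.30. In WT repeat 2 they were *Ereg* at 6.72 (others 4.51 to 4.96), *Acly* at 0.86, *Prc1* at 0.62 and *Gstp1* at 0.28. In WT repeat 3 they were *Sprr2k* at 7.0 (others 1.93 to 3.33) and *Mmp10* at 4.60 (others 0.85 to 1.78), and in WT repeat 5 *Trib3* at 0.91.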

How the results depend on the processing

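The 386 calls of the comparison became 915 with only the 10 arrays in the fit, 645 after quantile normalization, 623 after scaling, 582 with run as a random block, 2374 with array weights, 240 with sign and dye by label and 204 without the 4 arrays of low keratinocyte signal. With the repeat number as a replicate block there were 589 calls, 296 of them among the 386. Leaving out single arrays gave 205 to 394. The 26 interaction calls against no inhibitor became 107 with forward arrays only, 74 after quantile normalization, 62 after scaling and 16 with probes averaged by gene. They became 4 with run as a random block, 7 by label, 1685 with array weights, and 8 to 103 with single arrays left out. Of the 26, 38.5% were higher, against 61.7% with forward arrays only and 57.2% with array weights. The 43 against AG1478 became 95 after quantile normalization, 123 after scaling, 14 by gene, 26 by label (14 among the 43), 395 with array weights and 202 in run 8 alone (20 among the 43), and 24 to 53 with single arrays left out; 46.5% were higher, against 60% after quantile normalization and 61.8% after scaling. The 14 against erlotinib became 85 with forward arrays only, 4 by gene, 56 with the random block, 4 by label, 775 with array weights and 2 after scaling, and 2 to 124 with single arrays left out. The causes were not tested. Of 67 named genes called, 18 were called under every alternative that tested them (*Krt18* had too few values for some) and 49 lost the call under at least 1, and of 74 not called 18 were called under at least 1. No called value changed sign, while 25 values that were not called did under at least 1, such as *Krt16* (1.44, lowest −0.09) and *Chac1* (0.84, lowest −0.82).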

Other observations

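Several genes outside the lists, or read by a probe other than the chosen one, were called and were picked out after their values were seen. *Hsp90b1*, a chaperone of the endoplasmic reticulum (−2.28, limma adjusted p = 1.42e-05), *Igfbp3*, which binds insulin-like growth factors (−2.21, 1.5e-04), *Epor*, the erythropoietin receptor (−2.16, 4.7e-04), and *Ecm1*, an extracellular matrix protein of skin (−2.14, 7.5e-04), were lower in KO with PD153035. Another probe each of *Igfbp3* (−1.42, 0.0834) and *Epor* (−0.49, 0.663) was not called. *Mid1*, a microtubule-associated ubiquitin ligase, was higher by 2 probes (2.05, 1.32e-05, and 1.31, 0.0041) and not called at the third (0.34, 0.915). *Dusp4*, a phosphatase induced by ERK, was lower at 1 probe (−2.40, 0.0011), with −1.24 and −0.46 at the others.

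*Xist*, the RNA of the inactive X chromosome, was higher in KO at 1 of 2 probes (1.97 ± 0.49, adjusted p = 0.0209, and 1.64 ± 0.52, adjusted p = 0.102). At the former it read 1.70, 1.56, 1.39, 1.91 and 1.58 on the KO arrays and −0.19, −0.39, −0.72, 0.12 and −0.56 on the WT arrays. At the latter it read 1.26 to 1.89 in KO and −0.83 to 0.53 in WT, also without overlap. The former probe was called higher in KO with AG1478 as well (1.99, limma adjusted p = 0.0113). The Y-linked genes *Uty*, *Kdm5d* and *Eif2s3y* were not called (lowest adjusted p = 0.697). The sex of the newborn mice is not given in the labels used here.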
